A study of Homo sapiens with 12 samples.

Results

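GNG5P2, SCDP1, EIF5AP4 and FTH1P20 are 4 pseudogenes in the count files. The files held 45320 genes, 6773 of them pseudogenes by annotation or, where no gene type matched, by symbol. Each of the 4 is an intronless copy of the transcript of another gene, its parent. The 4 were chosen by their own counts, which in an earlier look at these 12 libraries had differed between libraries or comparisons, so their values are described and not tested. The parents are GNG5, SCD, EIF5A and FTH1, of which 3 were analysed; SCD was not analysed here. The parents and the other copies of the same parents were tested, because they were not chosen for their values.

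The libraries came from Ishikawa cells, a line derived from a human endometrial adenocarcinoma, which carried a short hairpin against ARID1A (shARID1A) or a control hairpin (shNC). ARID1A is the gene of a subunit of SWI/SNF, a machine that moves nucleosomes. For 8 h, cells of both arms received 10 nM estradiol plus 100 nM fulvestrant, 10 nM estradiol (E2) alone, or the vehicle DMSO, which gave 6 groups of 2 libraries. Fulvestrant binds the estrogen receptor, blocks it and leads to its degradation. All cells had been kept without phenol red in serum stripped of steroids, and the labels give neither the number of hairpins or clones behind an arm nor whether replicates were separate cultures. Totals ran from 28810351 to 38657162 counts per library. ARID1A itself had 1567 to 2100 counts in the 6 shARID1A libraries, against 3429 to 4251 in the 6 shNC libraries, so transcript remained in the knockdown. Of the epithelial markers, KRT8 stood at 342 to 367 CPM (counts scaled to library size) in shARID1A libraries and 563 to 618 CPM in shNC libraries. KRT18 stood at 193 to 216 CPM in shARID1A libraries and 280 to 320 CPM in shNC libraries, whereas EPCAM, CDH1 and KRT19 were at most 1.97 CPM in any library. Of the stromal fibroblast markers, COL1A1 stood at 45.4 to 48.5 CPM in shARID1A libraries and 25.2 to 35.1 CPM in shNC libraries, while the other 4 were at most 0.219 CPM. Immune markers summed to at most 0.769 CPM and endothelial markers to at most 0.264 CPM in any library.

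A processed pseudogene arises when a messenger RNA is copied back into DNA and inserted elsewhere in the genome, without introns and usually without the promoter of its parent. Housekeeping genes with abundant, short transcripts have many such copies. Most copies are silent, a few are transcribed from a nearby promoter, and a short read from a stretch that parent and copy share cannot be placed between them by its sequence. GNG5 encodes a gamma subunit of heterotrimeric G proteins, SCD the desaturase that puts the double bond into saturated fatty acids, EIF5A the hypusine-bearing factor that helps ribosomes through difficult stretches, and FTH1 the heavy chain of ferritin, which oxidises and stores iron.

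In hg19, the build of the count files, GNG5P2 is the single exon at chrX:109589700-109590201 on the minus strand, SCDP1 is chr17:20687958-20689038 on the plus strand, EIF5AP4 is chr10:82006975-82007439 on the minus strand and FTH1P20 is chr2:181737594-181738141 on the minus strand. All 4 are annotated as processed pseudogenes in GENCODE v29; the RefSeq table used here lists the GNG5P2 gene as GNG5B and protein coding, and the other 3 as pseudogenes. No annotated gene overlapped any of the 4. Their parents lie on other chromosomes, with GNG5 on chromosome 1, SCD on chromosome 10, EIF5A on chromosome 17 and FTH1 on chromosome 11.

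The sequences below set GNG5P2, SCDP1 and EIF5AP4 beside their parents, because within these stretches copy and parent differ only at the bases in capitals. They are 5′ to 3′ on the strand of the gene, from the GENCODE v29 transcripts (GRCh38). GNG5P2 is shown over its whole annotated transcript of 207 bases, EIF5AP4 over positions 1 to 270 of its 465 bases and SCDP1 over positions 259 to 498 of its 1081 bases; each parent is shown over the aligned stretch.
GNG5P2: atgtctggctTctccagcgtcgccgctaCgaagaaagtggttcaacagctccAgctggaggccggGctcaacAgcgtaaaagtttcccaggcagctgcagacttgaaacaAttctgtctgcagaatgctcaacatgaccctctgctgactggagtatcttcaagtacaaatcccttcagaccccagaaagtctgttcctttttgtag
GNG5: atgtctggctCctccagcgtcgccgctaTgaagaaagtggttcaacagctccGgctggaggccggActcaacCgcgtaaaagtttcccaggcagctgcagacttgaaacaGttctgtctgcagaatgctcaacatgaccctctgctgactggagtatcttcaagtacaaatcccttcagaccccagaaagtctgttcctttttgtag
SCDP1: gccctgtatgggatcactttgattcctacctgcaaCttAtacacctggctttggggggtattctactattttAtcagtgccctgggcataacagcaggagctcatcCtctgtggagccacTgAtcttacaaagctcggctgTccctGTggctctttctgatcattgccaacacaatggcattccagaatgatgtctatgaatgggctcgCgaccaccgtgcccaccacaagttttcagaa
SCD: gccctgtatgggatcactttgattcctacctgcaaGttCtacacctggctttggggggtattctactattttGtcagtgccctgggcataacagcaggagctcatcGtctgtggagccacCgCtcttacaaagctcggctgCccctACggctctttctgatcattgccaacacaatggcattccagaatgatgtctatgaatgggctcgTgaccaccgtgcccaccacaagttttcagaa
EIF5AP4: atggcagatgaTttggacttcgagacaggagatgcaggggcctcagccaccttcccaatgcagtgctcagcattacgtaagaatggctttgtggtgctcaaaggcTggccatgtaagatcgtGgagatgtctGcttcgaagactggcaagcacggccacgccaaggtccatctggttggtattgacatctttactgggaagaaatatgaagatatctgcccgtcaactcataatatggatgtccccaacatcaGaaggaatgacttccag
EIF5A: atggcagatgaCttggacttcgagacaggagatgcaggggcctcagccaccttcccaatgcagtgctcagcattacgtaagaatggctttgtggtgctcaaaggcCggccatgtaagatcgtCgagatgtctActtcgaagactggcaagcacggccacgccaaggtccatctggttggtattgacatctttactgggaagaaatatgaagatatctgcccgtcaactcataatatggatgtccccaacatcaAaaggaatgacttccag

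GNG5P2 differed from GNG5 at 6 of 207 aligned positions (97.1% identity), namely C11T, T29C, G53A, A66G, C73A and G111A, where the parent's base comes first and positions count from 1 at the first base of the copy's transcript. The last of them is at position 111, and the longest stretch without a difference was 96 bases. Its reading frame had no early stop: the first in-frame stop began at position 205, the last codon of the alignment. EIF5AP4 differed from EIF5A at 7 of 465 positions (98.5%), from C12T to T368C, had its longest identical stretch at 120 bases, and kept the frame to the stop at position 463. SCDP1 and FTH1P20 had lost their frames. SCDP1 carried 33 substitutions and 3 extra bases (96.7%), and C379T with C381A made a stop codon that began at position 379. FTH1P20 carried 12 substitutions and lacked 4 bases of FTH1 over its 548 bases (97.1%), with an in-frame stop that began at position 97.

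How far a read can be told apart depends on its length, which is not given in the sources used here. Of all windows of 50 bases in GNG5P2, 70.3% matched no other annotated transcript exactly, as did 89.0% of those in SCDP1, 56.9% in FTH1P20 and 24.0% in EIF5AP4. With windows of 100 bases the shares were 100% for GNG5P2, 100% for SCDP1, 92.9% for FTH1P20 and 54.1% for EIF5AP4. Over the transcripts compared, EIF5AP4 is thus the hardest of the 4 to separate. The other gene that held its windows at 100 bases, beside EIF5A, was EIF5AL1. For GNG5P2 the windows covered only its annotated transcript of 207 bases, whereas its reads were counted over 502 bases in hg19. The rest of that interval was not compared, so the GNG5P2 shares do not cover all of its counted reads. A mismatch that an aligner tolerates is not covered by these exact matches.

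GNG5P2, EIF5AP4 and FTH1P20 lay far below their parents. Per kilobase of counted exon, over all 12 libraries, GNG5P2 averaged 4.85 ± 3.88 CPM per kilobase and GNG5 95.5 ± 6.22, EIF5AP4 10.5 ± 3.99 and EIF5A 282 ± 23.1, and FTH1P20 661 ± 59.2 and FTH1 3976 ± 205 (SD, n = 12 each). SCDP1 averaged 66.2 ± 26.9 CPM per kilobase. The GNG5P2 interval counted in hg19 was 502 bases long, longer than the transcript shown above. How its reads lay along the interval was not examined, so the bearing of that length on its value per kilobase is not known.

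**Figure D1:**
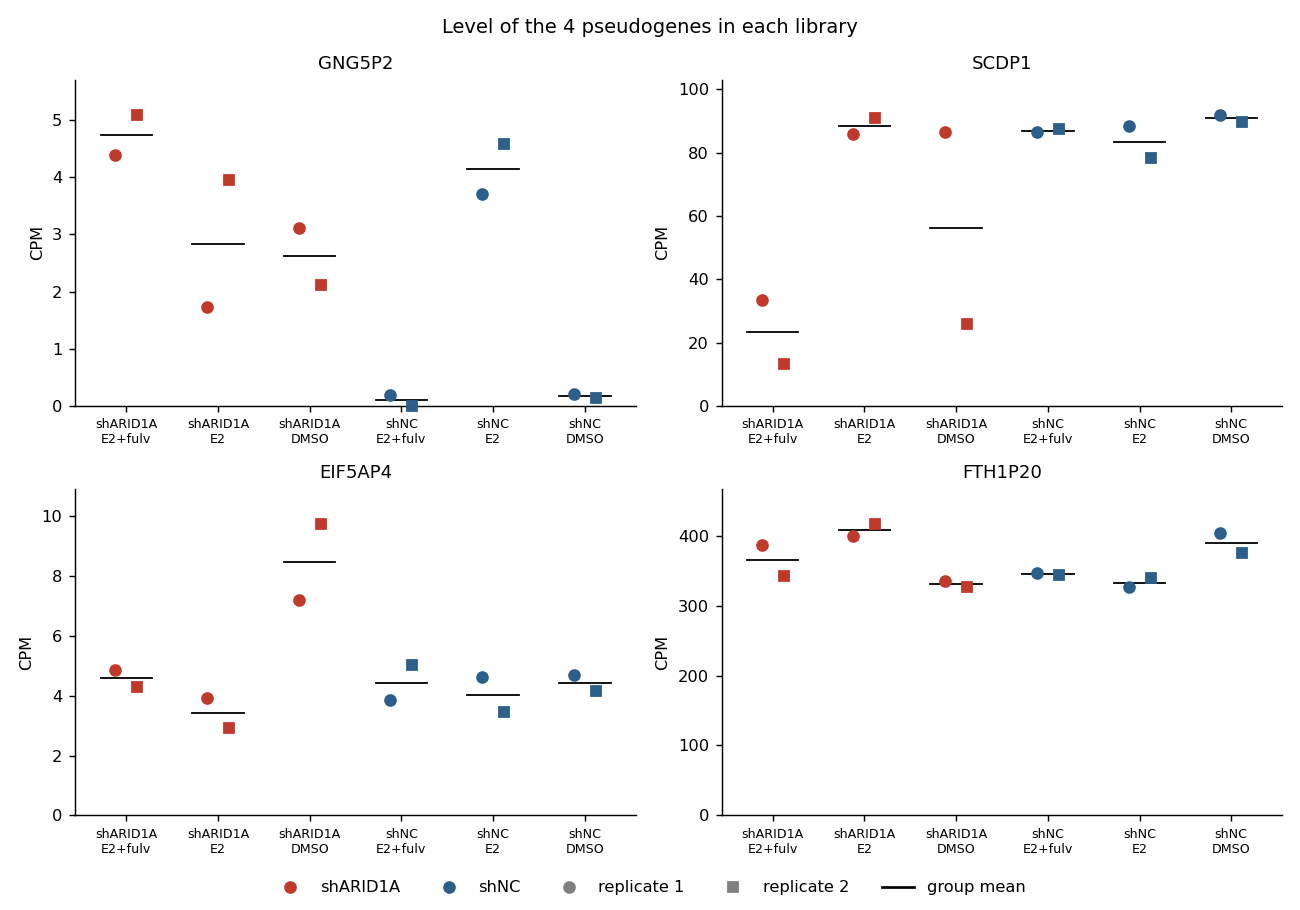
CPM (counts scaled to library size with TMM factors, linear axes from 0) of GNG5P2, SCDP1, EIF5AP4 and FTH1P20 in each of the 12 libraries, by arm and treatment (E2+fulv is E2 plus fulvestrant); circles are replicate 1, squares replicate 2, and lines the mean of the pair. GNG5P2 is near 0 in 4 shNC libraries, SCDP1 is low in 3 shARID1A libraries, EIF5AP4 is highest in the pair of shARID1A libraries in DMSO, and FTH1P20 lies between 327 and 416 CPM throughout.

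GNG5P2 fell into 2 levels. In shARID1A cells it had 128 and 151 counts with E2 plus fulvestrant, 54 and 146 with E2, and 94 and 63 in DMSO. In shNC cells it had 6 and 0 counts with E2 plus fulvestrant, 116 and 158 with E2, and 7 and 4 in DMSO. The 8 libraries of the other 4 groups thus stood at 1.72 to 5.10 CPM and the 4 shNC libraries without E2 or with fulvestrant at 0 to 0.212 CPM, with no overlap. The library with 0 counts allows up to 3 counts, or 0.0991 CPM, and these limits cover counting error only. In bulk RNA, fewer cells that carry a transcript and less transcript per cell cannot be told apart.

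Group means of GNG5P2 were 4.74 ± 0.499 CPM with E2 plus fulvestrant, 2.83 ± 1.57 CPM with E2 and 2.61 ± 0.693 CPM in DMSO for shARID1A, and 0.0939 ± 0.133, 4.14 ± 0.622 and 0.174 ± 0.0548 CPM for shNC in the same order (SD, n = 2 each). Fitted log2 fold changes of shARID1A over shNC were 5.58 with E2 plus fulvestrant, -0.51 with E2 and 3.87 in DMSO. Those for E2 over DMSO were 0.16 in shARID1A and 4.54 in shNC, and those for E2 plus fulvestrant over E2 were 0.70 in shARID1A and -5.39 in shNC. Folds against the near-empty groups depend on the prior count of the fit and are no bounds. The shARID1A pair with E2 differed by 2.29-fold between its replicates, and spanned the whole DMSO pair, while both libraries with E2 plus fulvestrant lay above it.

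Reads of GNG5P2 made up a small share of GNG5 and GNG5P2 together. With exact Clopper-Pearson 95% intervals, the share was lowest among shARID1A libraries at 2.89% (2.18 to 3.76%) in replicate 1 with E2 and highest at 9.57% (8.16 to 11.1%) in replicate 2 with E2 plus fulvestrant. In shNC it was 7.01% (5.83 to 8.35%) and 8.44% (7.22 to 9.79%) with E2, and at most 0.395% (0.159 to 0.813%) in the other 4 libraries. The 2 levels were drawn from these same counts, so the gap between their intervals is a description and no test.

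GNG5 itself moved little. It had 55.5 and 48.1 CPM with E2 plus fulvestrant, 57.9 and 57.3 CPM with E2 and 52.5 and 58.5 CPM in DMSO in shARID1A cells. In shNC cells it had 51.2 and 52.4 CPM with E2 plus fulvestrant, 49.1 and 49.7 CPM with E2 and 53.5 and 52.7 CPM in DMSO. Between arms the pairs overlapped in DMSO and with E2 plus fulvestrant but not with E2, where shARID1A was higher; within shNC the E2 pair lay below both other pairs. By edgeR's quasi-likelihood test with Benjamini-Hochberg adjustment over 17020 genes, GNG5 passed the threshold of 0.05 only for shARID1A over shNC with E2 (log2 fold change 0.22 ± 0.08 SE, adjusted p = 0.0388). That call was lost, with the adjusted p up to 0.157, in 8 of 12 fits that left out 1 library (either shARID1A library with E2 or any of the 6 shNC libraries), and also when the reads of the copies were added to GNG5 (0.17, adjusted p = 0.0938). In DMSO the log2 fold change of GNG5 was 0.06 ± 0.08 (adjusted p = 0.658) and with E2 plus fulvestrant -0.00 ± 0.08 (adjusted p = 0.997).

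In shNC cells the differences in CPM of GNG5 and its copy ran in opposite directions. For E2 minus DMSO, GNG5P2 differed by 3.97 CPM and GNG5 by -3.70 CPM; for E2 plus fulvestrant minus E2, GNG5P2 differed by -4.05 CPM and GNG5 by 2.47 CPM. Summed, the 2 genes spanned 51.4 to 54.3 CPM over the 6 shNC libraries with a coefficient of variation of 1.87%, against 3.42% for GNG5 alone. In shARID1A the coefficients were 5.46% for the sum and 7.23% for GNG5 alone, and over all 12 libraries 6.54% and 6.51%. GNG5 in shNC did not pass the test in either treatment comparison (E2 over DMSO -0.10 ± 0.08, adjusted p = 1.00; E2 plus fulvestrant over E2 0.07 ± 0.08, adjusted p = 0.856), and whether reads passed between the copies was not tested. With the copies' reads added, these 2 log2 fold changes were 0.01 and -0.04. For shARID1A minus shNC in DMSO both genes differed in the same direction, GNG5P2 by 2.44 CPM and GNG5 by 2.44 CPM.

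Of the other 3 copies of GNG5 in the files, GNG5P1 and GNG5P5 had 0 counts in all 12 libraries and GNG5P3 at most 1. The nearest gene before GNG5P2, AMMECR1, averaged 2.97 CPM (1.62 to 5.18), and the nearest after it had 0 counts. Among 13253 other genes at 1 CPM or more on average, the 3 most correlated with GNG5P2 over 12 libraries in log2(CPM + 0.5) were EWSR1 (Pearson r = 0.915), PITPNM3 (0.906) and AC138123.2 (0.902). EWSR1, an RNA-binding protein gene, only ranged from 318 to 347 CPM. These are descriptions of a search over many genes, with libraries, arms and depth shared by all points.

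SCDP1 was low in 3 of 12 libraries, all of them shARID1A. It had 978 and 396 counts with E2 plus fulvestrant, 2686 and 3370 with E2 and 2622 and 770 in DMSO in shARID1A, against 2764 and 2727, 2777 and 2697, and 3033 and 2666 counts in shNC for the same treatments. The other 9 libraries lay between 78.2 and 92.0 CPM, and the 3 low ones at 33.5 and 13.4 CPM with E2 plus fulvestrant and 25.9 CPM in replicate 2 in DMSO. One shARID1A pair thus split 3.34-fold in DMSO, and the pair with E2 plus fulvestrant, both low, still split 2.51-fold. All 3 shNC pairs split by at most 1.13-fold.

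Fitted log2 fold changes of SCDP1 for shARID1A over shNC were -1.89 with E2 plus fulvestrant, 0.09 with E2 and -0.69 in DMSO. E2 over DMSO gave 0.65 in shARID1A and -0.13 in shNC, and E2 plus fulvestrant over E2 gave -1.92 in shARID1A and 0.06 in shNC. The values in DMSO rest on a pair in which replicate 1 was at the level of shNC and replicate 2 was not. SCDP1 was the only copy of SCD by symbol in the files. Its nearest neighbours in the annotation were OLA1P2, with at most 4 counts, and a gene without a symbol at 0.803 to 1.53 CPM, neither at its level. The genes most correlated with it over 12 libraries were ACY1 (r = 0.888), which encodes an aminoacylase, NAT14 (0.879) and DIP2A (0.876). DIP2A ranged from 63.8 to 73.6 CPM and ACY1 from 1.28 to 2.93 CPM, much narrower ranges than the 13.4 to 92.0 CPM of SCDP1.

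With SCD itself not analysed here, the other genes of fatty acid desaturation and its control give the setting. Of 16 listed, 13 passed the filter on low counts, and 10 were called in each of the 3 knockdown comparisons, 5 higher and 5 lower. Over all 17020 genes, 24.2% were called with E2 plus fulvestrant, 27.2% with E2 and 19.2% in DMSO. FADS2, a desaturase of polyunsaturated fatty acids, rose in shARID1A in DMSO to 125 ± 4.94 CPM against 64.8 ± 3.90 CPM in shNC (log2 fold change 0.94 ± 0.08 SE, edgeR adjusted p = 7.98e-11). ELOVL1, an elongase, rose by 0.80 ± 0.07 (adjusted p = 5.43e-11). FASN, the fatty acid synthase, fell to 1914 ± 18.8 CPM against 2631 ± 219 CPM (-0.46 ± 0.05, adjusted p = 2.64e-08), and INSIG1, which retains the SREBP escort protein in the endoplasmic reticulum, fell by 0.65 (SE 0.05, adjusted p = 6.76e-12). The list median in DMSO was 0.06, against -0.01 over all 17020 genes. By edgeR 0 of 52 values were called in the 4 treatment comparisons, with 9 at an unadjusted p under 0.05 and 0 by DESeq2. FADS2, ELOVL1, FASN and INSIG1 were called in the same direction in all 3 knockdown comparisons.

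EIF5AP4 stood apart in 1 group. It had 142 and 127 counts with E2 plus fulvestrant, 123 and 108 with E2 and 218 and 289 in DMSO in shARID1A. In shNC it had 123 and 157 counts with E2 plus fulvestrant, 145 and 119 with E2, and 155 and 123 in DMSO. The shARID1A pair in DMSO, at 7.20 and 9.74 CPM, lay above all 10 other libraries, which ran from 2.92 to 5.03 CPM. The replicates of every pair differed by at most 1.35-fold, so the copy was not unsteady between replicates. Fitted log2 fold changes for shARID1A over shNC were 0.05 with E2 plus fulvestrant, -0.24 with E2 and 0.93 in DMSO, and that for E2 over DMSO in shARID1A was -1.32, against -0.15 in shNC.

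EIF5A did not share this pattern. In DMSO, where its copy was high in shARID1A, EIF5A had 448 and 445 CPM in shARID1A and 445 and 419 CPM in shNC (log2 fold change 0.05 ± 0.05 SE, edgeR adjusted p = 0.612). It was higher in shARID1A with E2, at 482 and 490 CPM against 420 and 392 CPM in shNC (0.26 ± 0.05, adjusted p = 0.000437), and with E2 plus fulvestrant, at 481 and 435 CPM against 386 and 395 CPM (0.23 ± 0.05, adjusted p = 0.00201). The copy's own fitted values with these 2 treatments were -0.24 and 0.05. The second of the 2 calls was lost when replicate 1 of shARID1A with E2 plus fulvestrant was left out (0.16, edgeR adjusted p = 0.109). The share of EIF5AP4 in EIF5A and EIF5AP4 reads was 1.58% (1.38 to 1.80%, exact 95% interval) and 2.14% (1.91 to 2.40%) in shARID1A in DMSO, and 0.592% to 1.26% in the other 10 libraries. A copy of this size adds little to its parent: the sum spanned 390 to 493 CPM and EIF5A alone 386 to 490 CPM.

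Of the other copies of EIF5A, EIF5AP2 passed the filter at a mean of 0.826 CPM and was called in none of the 7 comparisons (edgeR adjusted p from 0.723 to 1.00), and EIF5AP3 had at most 3 counts. EIF5AL1, which shares most with EIF5AP4, was not analysed here, so how reads were divided between the 2 is not known. The nearest annotated genes had at most 5 counts. The genes most correlated with EIF5AP4 were RPL4P4 (r = 0.820), RPS3AP26 (0.812) and AC012307.3 (0.774), the first 2 being copies of ribosomal protein genes. RPL4P4 ranged from 926 to 1006 CPM and RPS3AP26 from 249 to 298 CPM, and both had their highest values in the shARID1A pair in DMSO.

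Among genes of hypusination and polyamine synthesis, whose product spermidine gives EIF5A its hypusine, 10 of 11 listed passed the filter. In shARID1A over shNC, 4 were higher and 3 lower with E2 plus fulvestrant, 4 higher and 2 lower with E2, and 2 higher and 2 lower in DMSO, beside 24.2%, 27.2% and 19.2% of all genes called. DOHH, the hydroxylase that completes hypusine, rose to 26.7 ± 2.14 CPM in shARID1A in DMSO against 20.2 ± 0.645 CPM in shNC (0.40 ± 0.10, edgeR adjusted p = 0.00548). ODC1, the first enzyme of polyamine synthesis, fell to 115 ± 2.06 CPM against 161 ± 4.41 CPM (-0.48 ± 0.07, adjusted p = 1.62e-06), and OAZ1, the antizyme that targets it, rose by 0.20 (SE 0.05, adjusted p = 0.00353). The list median in DMSO was 0.08, against -0.01 over all genes. By edgeR 0 of 40 values were called in the treatment comparisons, with 5 at an unadjusted p under 0.05 and 0 by DESeq2.

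FTH1P20 was the steadiest of the 4. It had 387 and 342 CPM with E2 plus fulvestrant, 399 and 416 CPM with E2 and 336 and 327 CPM in DMSO in shARID1A. In shNC it had 347 and 344 CPM with E2 plus fulvestrant, 327 and 339 CPM with E2 and 404 and 375 CPM in DMSO. The pairs did not overlap between E2 and DMSO in either arm, with E2 the higher in shARID1A and DMSO the higher in shNC. Fitted log2 fold changes were 0.30 and -0.23 for E2 over DMSO in shARID1A and shNC, -0.16 and 0.05 for E2 plus fulvestrant over E2, and 0.08, 0.29 and -0.23 for shARID1A over shNC with E2 plus fulvestrant, with E2 and in DMSO. Replicates differed by at most 1.13-fold.

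FTH1 had 7049 and 6366 CPM with E2 plus fulvestrant, 7142 and 7513 CPM with E2 and 6929 and 6820 CPM in DMSO in shARID1A, against 6540 and 6232, 6990 and 6696, and 6812 and 7064 CPM in shNC for the same treatments. It passed the threshold in none of the 7 comparisons; the lowest adjusted p by edgeR was 0.0908, for shARID1A over shNC with E2 (0.10 ± 0.04 SE). E2 over DMSO gave 0.09 ± 0.04 in shARID1A (adjusted p = 0.748) and -0.02 ± 0.04 in shNC (adjusted p = 1.00). FTH1P20 held 4.47% to 5.61% of the reads of FTH1 and FTH1P20 together in the 12 libraries, lowest in replicate 1 of shNC with E2 and highest in replicate 1 of shNC in DMSO. For E2 over DMSO the copy's fitted values stood at 0.30 in shARID1A and -0.23 in shNC, and the shNC value of FTH1 turned positive (up to 0.018) without replicate 2 of shNC with E2 or in DMSO. For E2 plus fulvestrant over E2 in shNC the copy had 0.05 and FTH1 -0.10. The difference between copy and parent was not tested.

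**Figure D2:**
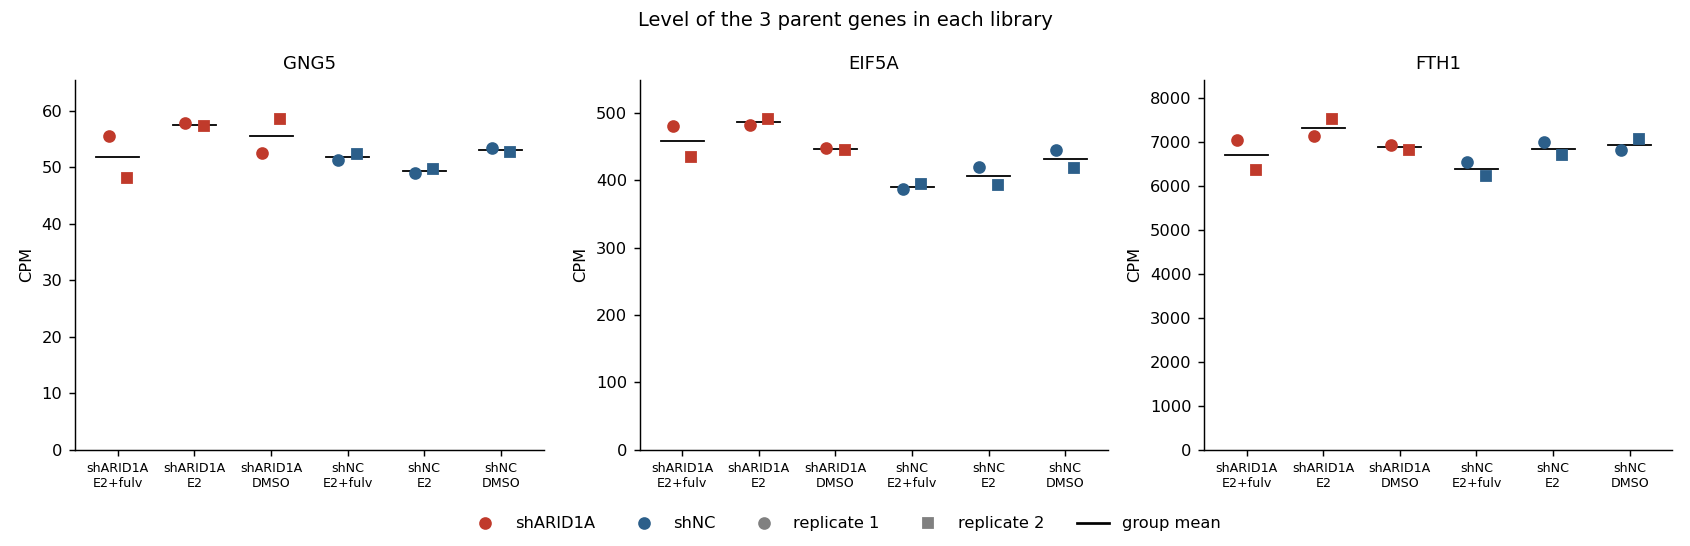
CPM (TMM-scaled, linear axes from 0) of GNG5, EIF5A and FTH1 in each of the 12 libraries, laid out by arm and treatment with circles for replicate 1, squares for replicate 2 and lines for pair means. EIF5A is higher in shARID1A with E2 and with E2 plus fulvestrant, and neither GNG5 nor EIF5A shows the gaps of its copy. In shARID1A the FTH1 pair with E2 lies above the pairs of both other treatments, as in FTH1P20. In shNC the FTH1 pairs with E2 and in DMSO overlap, unlike those of FTH1P20.

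The files held 25 copies of FTH1 by symbol, all with a sequence in GENCODE v29. Of these, 13 passed the filter and 6 had 0 counts in all libraries. The 12 copies with at least 95% identity to FTH1 all passed, at means of 0.262 to 438 CPM, and of the 13 less alike only FTH1P3 passed, at 1.96 CPM. FTH1P8, FTH1P7 and FTH1P2 had means of 438, 375 and 363 CPM, close to the 362 CPM of FTH1P20. FTH1 itself held 76.9% to 79.5% and FTH1P20 3.66% to 4.61% of all reads counted to FTH1 and its copies. A read from FTH1 that was placed on a copy and a read transcribed from the copy cannot be told apart in these counts, and their shares were not tested.

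**Figure D3:**
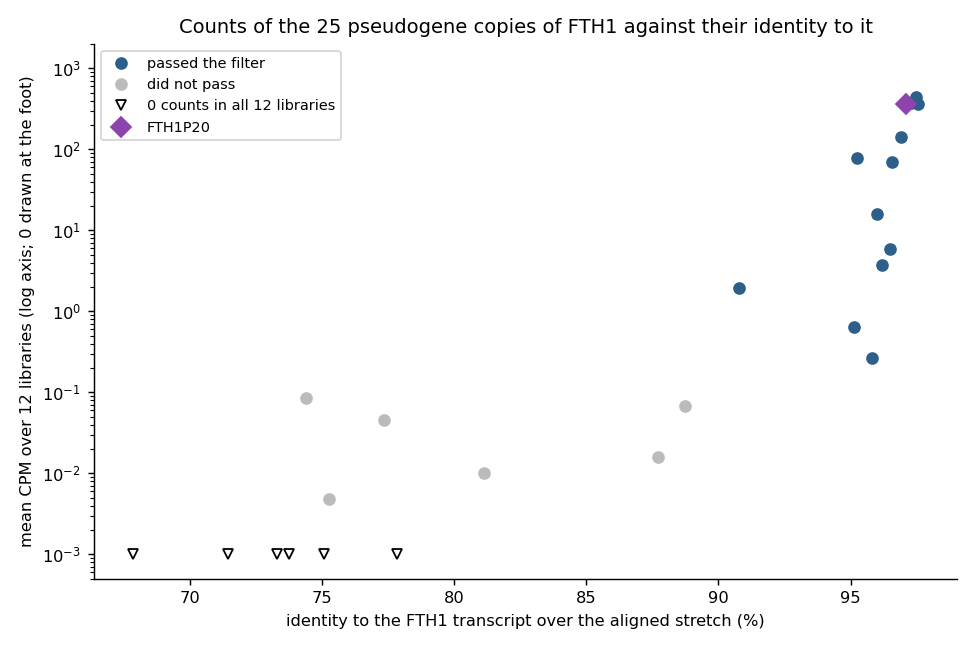
Mean CPM over 12 libraries (log axis; copies with 0 counts drawn as open triangles at the foot) of the 25 pseudogene copies of FTH1 against their percent identity to the FTH1 transcript over the aligned stretch. Copies above 1 CPM lie at 90.8% identity or more, and FTH1P20 is among 4 copies at 362 to 438 CPM.

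The 12 other FTH1 copies that passed the filter were tested. For shARID1A over shNC with E2 plus fulvestrant, FTH1P2 (0.17 ± 0.05 SE, edgeR adjusted p = 0.0200) and FTH1P8 (0.17 ± 0.06, adjusted p = 0.0218) were higher. With E2, FTH1P16 was lower (-0.26 ± 0.08, adjusted p = 0.0160), and in DMSO FTH1P5 was lower (-0.31 ± 0.09, adjusted p = 0.0125). These are 4 of 36 values, 2 in each direction, a smaller share than the 24.2%, 27.2% and 19.2% called over all genes in these comparisons, and each was lost in 3 of 12 fits that left out 1 library, always a library of the groups compared. In the 4 treatment comparisons 0 of 48 values were called by edgeR, with 6 at an unadjusted p under 0.05 and 0 by DESeq2. For E2 over DMSO in shARID1A, where FTH1P20 had 0.30, edgeR gave 0.28 ± 0.09 for FTH1P5 (adjusted p = 0.645), 0.15 ± 0.05 for FTH1P2 (adjusted p = 0.651) and 0.06 ± 0.06 for FTH1P8 (adjusted p = 0.873).

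The gene most correlated with FTH1P20 over 12 libraries was RP11-543P15.1 (r = 0.950 among 13243 genes), at 324 to 453 CPM, followed by RPSAP47 (0.923), a copy of a ribosomal protein gene, and WDR81 (0.898). Both nearest annotated genes of FTH1P20 had 0 counts. Among 16 genes of ferritin and iron handling, 12 passed the filter. In shARID1A with E2 plus fulvestrant 2 rose and 1 fell, with E2 3 rose and 1 fell, and in DMSO 3 rose and 1 fell. These are 3, 4 and 4 of 12 genes called, beside 24.2%, 27.2% and 19.2% over all genes. The 3 of 12 with E2 plus fulvestrant are near that share, and the other differences from it were not tested. TFRC, the transferrin receptor that brings iron into the cell, rose to 1824 ± 93.3 CPM in shARID1A in DMSO against 1001 ± 19.5 CPM in shNC (0.87 ± 0.06, edgeR adjusted p = 2.24e-13). STEAP3, a ferrireductase, fell to 27.4 ± 1.21 CPM against 43.4 ± 2.83 CPM (-0.67 ± 0.09, adjusted p = 2.96e-06), and HMOX1, the heme oxygenase that frees iron, rose by 0.40 (SE 0.08, adjusted p = 0.000826). The list median in DMSO was 0.02, against -0.01 over all genes. By edgeR 0 of 48 values were called in the treatment comparisons, with 9 at an unadjusted p under 0.05 and 0 by DESeq2.

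For GNG5P2, the matching list of G protein gamma and beta subunits and the enzymes that prenylate and trim gamma subunits had 14 of 22 members past the filter. In shARID1A over shNC, 6 were higher with E2 plus fulvestrant, 6 with E2 and 3 in DMSO by edgeR, and 0 were lower; 7, 7 and 6 had an unadjusted p under 0.05, and DESeq2 called 7, 6 and 3. Over all genes 24.2%, 27.2% and 19.2% were called, so that the 3 of 14 in DMSO are near that share. GNG7, another gamma subunit, rose to 6.26 ± 0.947 CPM in shARID1A in DMSO against 1.34 ± 0.465 CPM in shNC (2.21 ± 0.27, edgeR adjusted p = 2.05e-07), and GNB4, a beta subunit, rose to 34.1 ± 0.404 CPM against 20.5 ± 1.00 CPM (0.74 ± 0.11, adjusted p = 3.71e-06). List medians were 0.09, 0.16 and 0.12, against -0.03, -0.02 and -0.01 over all genes. By edgeR 0 of 56 values were called in the treatment comparisons, with 1 at an unadjusted p under 0.05 and 0 by DESeq2.

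**Figure D4:**
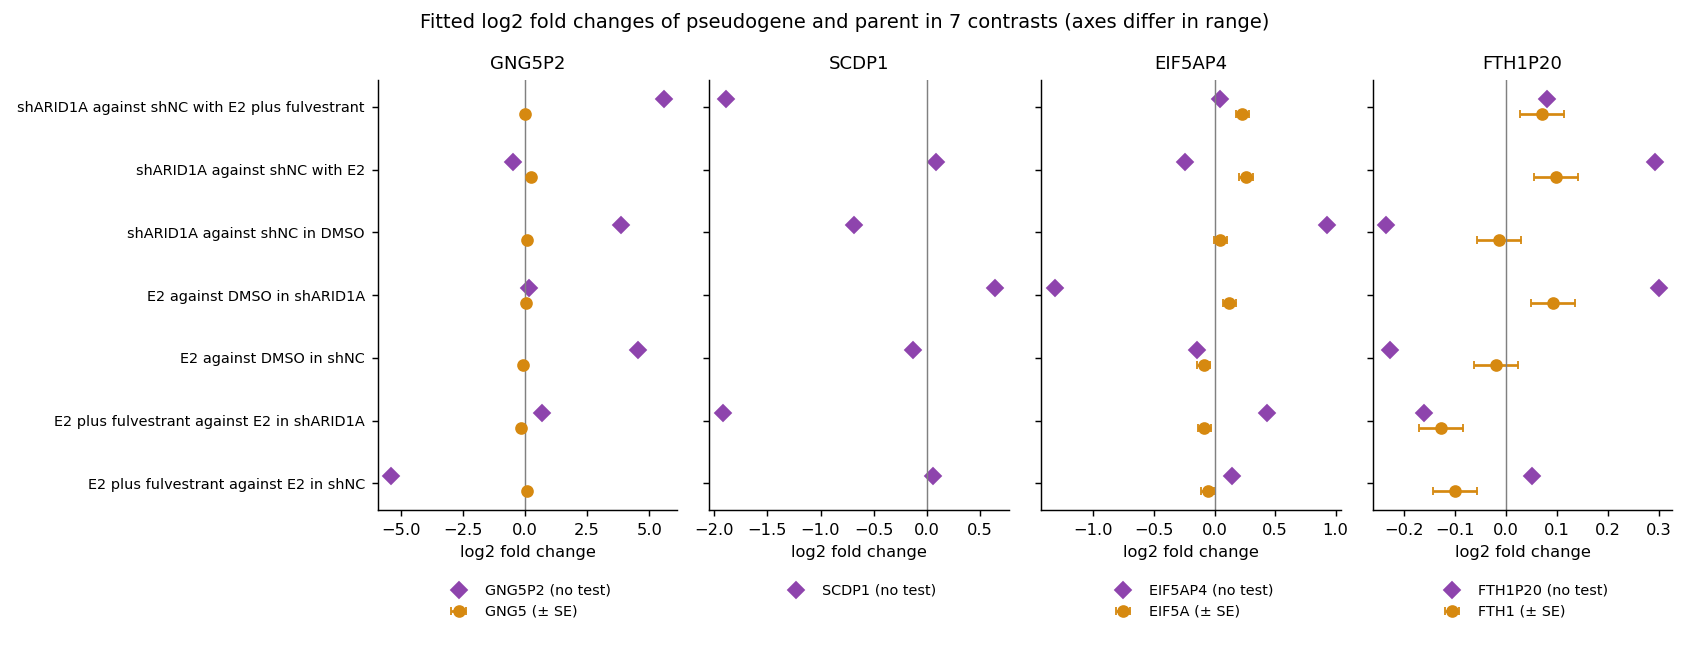
Fitted log2 fold changes in 7 comparisons for each copy (purple diamonds, described with no test) and its parent (orange circles with the SE of the fit); x axes differ in range between panels, and SCDP1 has no parent drawn. The copies' values span -5.39 to 5.58 for GNG5P2 and -0.23 to 0.30 for FTH1P20, while those of GNG5, EIF5A and FTH1 all lie within -0.15 to 0.26.

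Over the 4 treatment comparisons none of the 12 values of GNG5, EIF5A and FTH1 was called by edgeR or by DESeq2, and 4 had an unadjusted p under 0.05 in edgeR. Over the 3 knockdown comparisons 3 of 9 were called, all higher in shARID1A. The background in the knockdown comparisons was large, with 24.2% of 17020 genes called with E2 plus fulvestrant (2 of the 4 copies), 27.2% with E2 (1 of 4) and 19.2% in DMSO (4 of 4). In the treatment comparisons few genes were called at all. E2 over DMSO called 0.0235% of genes in shARID1A (2 of the 4 copies) and 0.00588% in shNC (1 of 4), and E2 plus fulvestrant over E2 called 0.00588% in shARID1A (1 of 4) and 0.00588% in shNC (1 of 4). Since the copies were chosen for such values, these counts say nothing about them. Beside EIF5AP4 and FTH1P20, the 4 genes called for E2 over DMSO in shARID1A held RPL37, a ribosomal protein gene, and RP11-543P15.1, named here after their values were seen.

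The spread between replicates was set beside that of all genes as the pooled SD of log2(CPM + 0.5) within the 6 groups. SCDP1 had an SD of 0.624, the 17th largest of 17020 genes, and 0 of 3722 genes within 2-fold of its level, 79 of them pseudogenes, had one as large. GNG5P2 had an SD of 0.361, with 92.1% of 2524 genes of like level below it. EIF5AP4, at 0.228, and FTH1P20, at 0.0653, had 74.6% and 70.2% of the genes of like level below them. The median SDs at their levels were 0.182 for EIF5AP4 and 0.0540 for FTH1P20. For its level the spread was largest in SCDP1 and next in GNG5P2, while the other 2 lay slightly above the median of their level. The copies were chosen by their own counts, so these ranks describe them and are no test. Leaving out either library of a pair takes the whole pair out of this SD. Without the shARID1A pair with E2 the SD of GNG5P2 was 0.237, against a median of 0.229 at its level. The SD of SCDP1 was lowest, at 0.415, without the shARID1A pair in DMSO. The parents had SDs of 0.0748 for GNG5, 0.0579 for EIF5A and 0.0570 for FTH1.

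**Figure D5:**
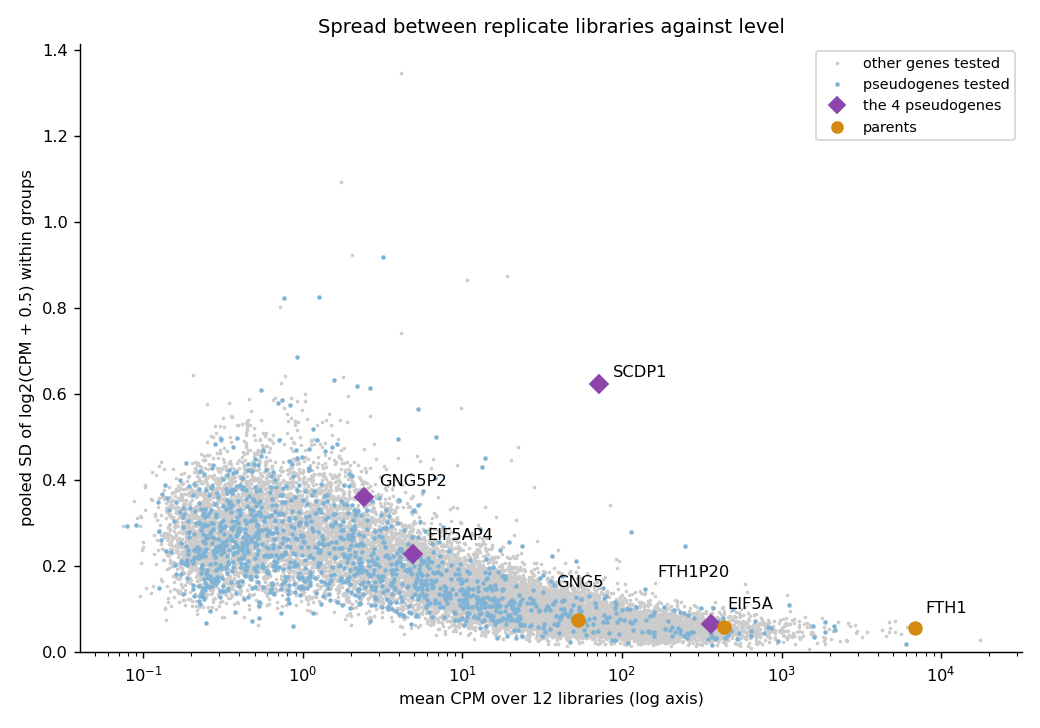
Pooled SD of log2(CPM + 0.5) between replicate libraries against mean CPM over 12 libraries (log axis) for the 17020 genes tested, with pseudogenes in blue, the 4 copies as purple diamonds and the parents as orange circles. SCDP1, at 0.624 and 71.6 CPM, lies far above genes of its level, while FTH1P20 and the parents lie within the cloud.

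Other pseudogenes were less steady than SCDP1. Among 784 tested pseudogenes averaging 1 CPM or more, SCDP1 ranked 4th, GNG5P2 33rd, EIF5AP4 171st and FTH1P20 702nd. BTF3P9 (SD 0.919, 38 to 344 counts), LDHAP5 (0.826, 15 to 169 counts) and EIF4A2P4 (0.633, 15 to 93 counts) ranked above it, copies of genes for a factor that binds nascent proteins, a lactate dehydrogenase subunit and an initiation factor. H2AFZP3, MT2P1, PPIAP11, ARHGAP23P1, HSPA8P5 and PARP1P1 followed with SDs of 0.619 to 0.495. All 9 had lower means than SCDP1, at 1.16 to 6.84 CPM. The median SD was 0.149 over these 784 pseudogenes, against 0.107 over the other genes averaging 1 CPM or more, a difference that was not tested. All genes annotated or named as pseudogenes took 4.82% to 4.97% of the counts of every library, or 1408683 to 1890671 counts. A single copy such as SCDP1, at 396 to 3370 counts, is too small to show in that total.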

How the data were processed

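The deposited values are counts, whole reads per gene and not normalized by the authors; per the submitters' processing notes the tools were Trim Galore, cutadapt, FastQC, Subread 2.0.0 and featureCounts 2.0.0 with hg19. How reads that fit several copies were counted, read length and strand use are not given in the sources used here. Per the labels' protocols, RNA extracted with TRIZOL went into poly(A) libraries. The labels do not say that replicates were separate cultures, so p-values measure the spread between libraries, which may be technical.

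Genes passing filterByExpr (17020) were fitted over all 12 libraries with edgeR 4.0.16 (R 4.3.3; TMM factors 0.957 to 1.03, quasi-likelihood test, Benjamini-Hochberg adjustment over all genes, threshold 0.05); DESeq2 1.42.0 was an alternative. CPM are TMM-scaled, except those of the nearest neighbours and of the limit for a count of 0, which are scaled to total counts. Pooled SDs within groups use log2(CPM + 0.5). In counts simulated for shARID1A against shNC in DMSO (17020 genes), 35 of 50 genes changed 1.5-fold, 42 of 50 changed 2-fold, 50 of 50 changed 4-fold and 50 of 50 changed 8-fold were called the right way. Shares have exact 95% intervals (scipy 1.17.1), and the limit of a count of 0 is 3 counts (0.0776 to 0.104 CPM), both for counting error only. Copies were aligned to GENCODE v29 transcripts with Biopython 1.88; names were looked up in RefSeq, where 4 of 4 copies matched. The sequences of FTH1P20 and FTH1 are not reported here.

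The members and all gene lists were chosen with earlier results of these data known. Genes named are the 4 copies, their parents, all copies of the same parents by symbol, nearest neighbours, the 3 most correlated genes per copy, the 10 least steady pseudogenes at 1 CPM or more, ARID1A and called members of 4 pathway lists.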

Additional observations from a re-analysis of the deposited data

Results flagged for a closer look

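For E2 plus fulvestrant against E2, GNG5P2 had a fitted log2 fold change of 0.70 in shARID1A and -5.39 in shNC, a difference of 6.09, and was picked out because both libraries of each arm moved in opposite directions without overlap. FTH1P20 was picked out in the same way for E2 against DMSO (0.30 in shARID1A, -0.23 in shNC, a difference of 0.53) and for E2 plus fulvestrant against E2 (-0.16 in shARID1A, 0.05 in shNC, a difference of -0.21). These 3 differences were not tested, because the genes were chosen by their values. For E2 against DMSO, FTH1P2, FTH1P3, FTH1P4, FTH1P5, FTH1P8, FTH1P12 and FTH1P23 had fitted signs like those of FTH1P20. The signs were the reverse in FTH1P7, FTH1P10, FTH1P11 and FTH1P16, and FTH1P15 was positive in both arms. The other copies of FTH1 picked out for opposite directions without overlap each had signs the reverse of those of FTH1P20. They were FTH1P10 for E2 against DMSO (-0.28 in shARID1A, 0.31 in shNC, a difference of -0.59), and FTH1P12 (0.18 in shARID1A, -0.33 in shNC, a difference of 0.51) and FTH1P16 (0.14 in shARID1A, -0.20 in shNC, a difference of 0.34) for E2 plus fulvestrant against E2. None of these 3 was called by edgeR's interaction term (adjusted p = 0.767 for FTH1P10 and 1.00 for FTH1P12 and FTH1P16; unadjusted p = 0.0357, 0.113 and 0.00729). GNG5 was picked out for E2 plus fulvestrant against E2 (-0.15 in shARID1A, 0.07 in shNC), and its difference of -0.22 ± 0.12 (SE) was not called by edgeR's interaction term (adjusted p = 1.00). GNG5, FTH1P10, FTH1P12 and FTH1P16 were picked out here by the same values that the interaction term uses. Their interaction p-values are therefore descriptions and no independent test. Over all 17020 genes, 992 (5.83%) moved in opposite directions without overlap for E2 and 627 (3.68%) for fulvestrant.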

How the results depend on the processing

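For the 3 parents, 115 of 125 values from the alternatives kept their direction and side of the threshold; the cause of the others was not tested. GNG5 in shARID1A against shNC with E2 plus fulvestrant, at -0.00071, turned to 0.017 with DESeq2 size factors in edgeR, 0.00091 with no low-count filter, 0.010 with only 4 libraries, 0.12 with the copies' reads added and 0.017 in DESeq2. Its call with E2 (0.22) was lost at 0.22 with no filter (adjusted p = 0.0572) and 0.17 with the copies added. With the copies added, GNG5 in shNC turned to 0.0077 for E2 against DMSO and -0.044 for E2 plus fulvestrant against E2. FTH1 with E2 passed the threshold with no filter (0.098, adjusted p = 0.0317). FTH1P7 with E2 plus fulvestrant, at -0.0098, turned to 0.0076 with DESeq2 size factors, 0.0013 with only 4 libraries and 0.0075 in DESeq2.

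Of genes called for E2 against DMSO, 4 in shARID1A became 1 with DESeq2 size factors, 37 with no filter and 21 with only 4 libraries, and 1 in shNC became 12 with no filter and 7 with only 4 libraries. For E2 plus fulvestrant against E2, 1 in shARID1A became 41 with no filter and 13 in DESeq2, and 1 in shNC became 19 with no filter and 2 in DESeq2. The highest over the lowest library (log2) of GNG5P2, 3.48, was 5.70 with a pseudocount of 0.1 and 1.83 with 2, and that of EIF5AP4, 1.58, was 1.26 with a pseudocount of 2.

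Correlations of same-numbered deviations ran from -0.228 to 0.282 over 15 pairs of groups, highest for E2 against DMSO in shNC. They do not settle whether replicate numbers paired the libraries, and the main fit had no replicate block. With the replicate block GNG5 with E2 was 0.22 (adjusted p = 0.0403), 4 genes in place of 1 were called for E2 against DMSO in shNC, and no other parent call or count of calls changed beyond 1.5 times.

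Leaving out 1 library gave, for shARID1A against shNC, GNG5 -0.11 to 0.099 with E2 plus fulvestrant, 0.21 to 0.23 with E2 and -0.015 to 0.14 in DMSO, EIF5A 0.16 to 0.30 with E2 plus fulvestrant and -0.0015 to 0.096 in DMSO, and FTH1 -0.0045 to 0.14 with E2 plus fulvestrant (called only without replicate 2 of shARID1A, adjusted p = 0.0298) and -0.036 to 0.0066 in DMSO. For E2 against DMSO it gave GNG5 -0.023 to 0.13 in shARID1A and FTH1 -0.053 to 0.018 in shNC. Genes called ran from 2336 to 4237, 2769 to 4702 and 2026 to 3370 in the knockdown with E2 plus fulvestrant, with E2 and in DMSO, from 0 to 5 and 1 to 4 for E2 against DMSO in shARID1A and shNC, and from 1 to 27 and 1 to 6 for E2 plus fulvestrant against E2. Counts moved beyond 1.5 times without shARID1A replicate 1 or shNC replicate 2 with E2 plus fulvestrant, and without replicate 2 of either arm with E2 and in DMSO; in the treatment comparisons they moved without 5, 3, 3 and 5 of the libraries. The highest over the lowest library was 1.81 to 2.74 for SCDP1 (lowest without replicate 2 of shARID1A with E2 plus fulvestrant) and 1.17 to 1.58 for EIF5AP4 (lowest without replicate 2 of shARID1A in DMSO). Copies that changed sign in the knockdown comparisons ranged with E2 plus fulvestrant EIF5AP2 -0.67 to 0.31, FTH1P3 -0.034 to 0.084, FTH1P4 -0.31 to 0.13, FTH1P10 -0.25 to 0.12, FTH1P5 -0.15 to 0.17, FTH1P15 -0.54 to 1.00, FTH1P11 -0.034 to 0.45, FTH1P16 -0.012 to 0.16, FTH1P7 -0.094 to 0.070; with E2 EIF5AP2 -1.40 to 1.47, FTH1P3 -0.015 to 0.51, FTH1P23 -0.038 to 0.12, FTH1P5 -0.069 to 0.20, FTH1P11 -0.13 to 0.0054, FTH1P12 -0.24 to 0.048, FTH1P7 -0.16 to 0.052, FTH1P8 -0.035 to 0.12; in DMSO FTH1P10 -0.034 to 0.24, FTH1P15 -0.80 to 0.20, FTH1P16 -0.10 to 0.11, FTH1P7 -0.048 to 0.10. With 2 libraries a group and depths of 28810351 to 38657162, levels under about 0.104 CPM are not told from 0.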
